A study of Homo sapiens with 12 samples.

Results

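PAX5 and 6 other B lineage genes were followed across RNA-seq libraries of YT cells that carried 4 different constructs. The 7 genes, PAX5, CD22, BLNK, CD79A, CD79B, MS4A1 and EBF1, were chosen by measured values, since PAX5 had already been seen to differ between groups of these libraries. Their own levels are therefore given as a description, without a test. The gene table lists 17589 genes, 6 of the 7 have values in it and MS4A1 was not analysed here.

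PAX5 is a paired-domain transcription factor that commits lymphoid progenitors to the B lineage and keeps mature B cells in that identity. It switches on genes of the B cell receptor and its co-receptors, such as CD79A, CD22 and BLNK, and it holds down genes of other lineages and of plasma cells, such as NOTCH1, CSF1R and PRDM1. In B cell development it works together with EBF1, and it is not part of the usual programme of NK or T cells.

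YT is a human NK-like cell line without CD16a of its own. All groups were infected with a lentiviral vector and, per the methods, eGFP-positive cells were sorted and expanded before RNA was taken without stimulation. CTRL cells carried eGFP. hnCD16 cells carried a modified CD16a receptor under the constitutive hEF1A promoter. FR1 and FR2 cells carried the same receptor ectodomain fused to 2B4, DAP10 and CD3ζ cytoplasmic domains (FR1) or to DAP10 and CD3ζ domains (FR2). Each of the 4 groups had 3 libraries, 12 in all, and the methods describe the in vitro data as 3 independent experiments. The labels do not tie each library to a separate culture, and if they were not separate, p-values measure the spread between these libraries alone, which may be technical.

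The libraries held 17714566 to 18729019 expected counts (RSEM's estimate of the reads of a gene), and 3 counts, taken as the floor, amount to 0.160 to 0.169 CPM, which is the count scaled to library size. Floors and intervals cover counting error only. FCGR3A, the gene of CD16a, had 1012 to 1132 counts in FR2, 559 to 567 in FR1, 453 to 480 in hnCD16 and 0 in CTRL. The FR1 and FR2 libraries stood apart from the CTRL and hnCD16 libraries at a large share of all genes. Of 13657 genes tested with edgeR, 18.3% were higher and 19.8% lower in FR1 than in CTRL, by the thresholds of the study (at least 1 on the log2 scale in either direction, adjusted p up to 0.05). Against hnCD16 the shares in FR1 were 18.7% higher and 19.6% lower. In FR2, 18.7% were higher and 19.6% lower than in CTRL, and 19.6% were higher and 19.8% lower than in hnCD16. Between FR1 and FR2, 1.93% of genes differed in either direction, and between hnCD16 and CTRL 0.527%.

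The NK cell label was checked against 12 NK cell markers. Their summed level was 64.9 to 75.7 CPM in CTRL and hnCD16 and 4546 to 4878 CPM in FR1 and FR2. In all 4 comparisons across these pairs of groups, 8 of the 12 were higher and 2 lower in FR1 and FR2. GZMB, the granzyme B gene, made up most of the FR sum. Without it the other 11 summed to 64.0 to 75.1 CPM and 1906 to 2085 CPM. GZMB had 10 to 17 counts in each CTRL and hnCD16 library and 44542 to 49153 in each FR1 and FR2 library. CD3D, a chain of the T cell receptor complex, had 7757 to 9903 counts in CTRL and hnCD16 and 0 to 3 in FR1 and FR2. The lower NK markers were NCR3, the gene of the receptor NKp30, with 101 to 109 counts in CTRL and hnCD16 and 0 to 17 in FR1 and FR2, and CD7, also a T cell marker, with 535 to 646 and 13 to 25. KLRD1, the gene of CD94, overlapped between the pairs, with 202 to 267 counts and 225 to 282. NCAM1, the gene of CD56, was among the higher markers but stayed low, with 0 to 4 counts in CTRL and hnCD16 and 21 to 42 in FR1 and FR2. The libraries labelled CTRL and hnCD16 thus go against the NK label at most of the listed markers. The FR1 and FR2 libraries go against it at NCR3 and CD7, and have little NCAM1. Every difference between these pairs of groups given here moves together with these markers, and their part in it was not tested. The labels give YT as the cell line of all 12 libraries, and whether both pairs are the same line was not tested here. The constructs and any other difference between the pairs cannot be told apart, which holds for every fold change across them.

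PAX5 (chr9:36833269-37034268 on GRCh38, minus strand) was at or near the floor in CTRL and hnCD16 and far above it in FR1 and FR2. It had 5, 1 and 1 counts in the CTRL libraries and 2, 0 and 2 in the hnCD16 libraries. The FR1 libraries had 656, 690 and 739 counts, and the FR2 libraries 807, 828 and 822. Every FR2 library lay above every FR1 library, and both groups lay far from the other 2, which overlapped each other. As TPM, a transcript level scaled for gene length and library depth, PAX5 was at 0.0233 ± 0.0231 (SD, n = 3) in CTRL and 0.0133 ± 0.0115 in hnCD16. It reached 7.99 ± 0.524 TPM in FR1 and 9.30 ± 0.14 TPM in FR2, so the FR1 and FR2 means were more than 1 SD apart. By summed counts, PAX5 was 558-fold higher in FR1 than in hnCD16 (exact 95% interval 217 to 2048) and 645-fold higher in FR2 (252 to 2371). Against CTRL the ratios were 341 (165 to 850) in FR1 and 395 (191 to 983) in FR2. Since RNA was measured in bulk, a change in the number of cells that express PAX5 and a change of its RNA per cell cannot be told apart.

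The CD79 chains went the opposite way. CD79A (chr19:41877279-41881372) encodes the Ig-alpha chain, which carries the signal of the B cell receptor. It had 175, 165 and 123 counts in CTRL and 135, 125 and 98 in hnCD16. The FR1 libraries had 4, 7 and 3 counts, and those of FR2 had 2, 4 and 7. In TPM it was at 14.6 ± 2.27 in CTRL and 11.0 ± 1.51 in hnCD16, but at 0.457 ± 0.232 in FR1 and 0.437 ± 0.277 in FR2. The FR1 and FR2 libraries did not overlap with the others, and FR1 overlapped with FR2 and CTRL with hnCD16. By summed counts CD79A was 23.9-fold lower in FR1 than in hnCD16 (95% interval 14.1 to 44.2) and 26.2-fold lower in FR2 (15.1 to 49.7).

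CD79B (chr17:63928738-63932336), the gene of the partner chain Ig-beta, followed CD79A. The CTRL libraries had 104, 92 and 94 counts and the hnCD16 libraries 105, 85 and 72. The FR1 libraries had 2, 0 and 0 counts and the FR2 libraries had 0 in each. CD79B stood at 8.24 ± 0.479 TPM in CTRL and 7.01 ± 1.17 TPM in hnCD16, below CD79A in all 6 of these libraries. It was at least 83.1-fold lower in FR2 than in hnCD16, with the floor of 3 counts taken over the group. In FR1, where the group had 2 counts, it was 122-fold lower than in hnCD16 (95% interval 33.6 to 1017). Those 2 counts are also under the floor, so this ratio and the bound for FR2 do not rank FR1 against FR2.

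BLNK, EBF1 and CD22 did not follow PAX5. BLNK (chr10:96189171-96271587) encodes the adaptor that links the B cell receptor kinases to phospholipase C. It had 95, 87 and 101 counts in CTRL and 90, 84 and 112 in hnCD16. The FR1 libraries had 110, 114 and 99 counts, and those of FR2 had 70, 83 and 95. The group means were 2.69 ± 0.180 TPM in FR1, 2.42 ± 0.200 in CTRL, 2.37 ± 0.434 in hnCD16 and 2.06 ± 0.315 in FR2, and the FR1 and FR2 libraries together overlapped with the others. BLNK was thus present at a level that did not separate libraries with high PAX5 from the others. Between FR1 and FR2 it did not overlap, and was 1.33-fold higher in FR1 by summed counts (95% interval 1.12 to 1.57).

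EBF1 (chr5:158695920-159099916), the partner factor of PAX5 in early B cells, had between 8 and 14 counts in each of the 12 libraries. Its TPM lay between 0.04 and 0.14, and all 4 groups overlapped. CD22 (chr19:35319261-35347361), an inhibitory co-receptor of B cells, had 1 count in FR1 replicate 2 and 0 in every other library, which is under the floor. Of the 6 genes with values, 5 passed edgeR's filter on low counts and CD22 did not. CD79A and CD79B were therefore lowest in the libraries where PAX5 was highest, and CD22 was not detectable above the floor in any group.

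**Figure D1:**
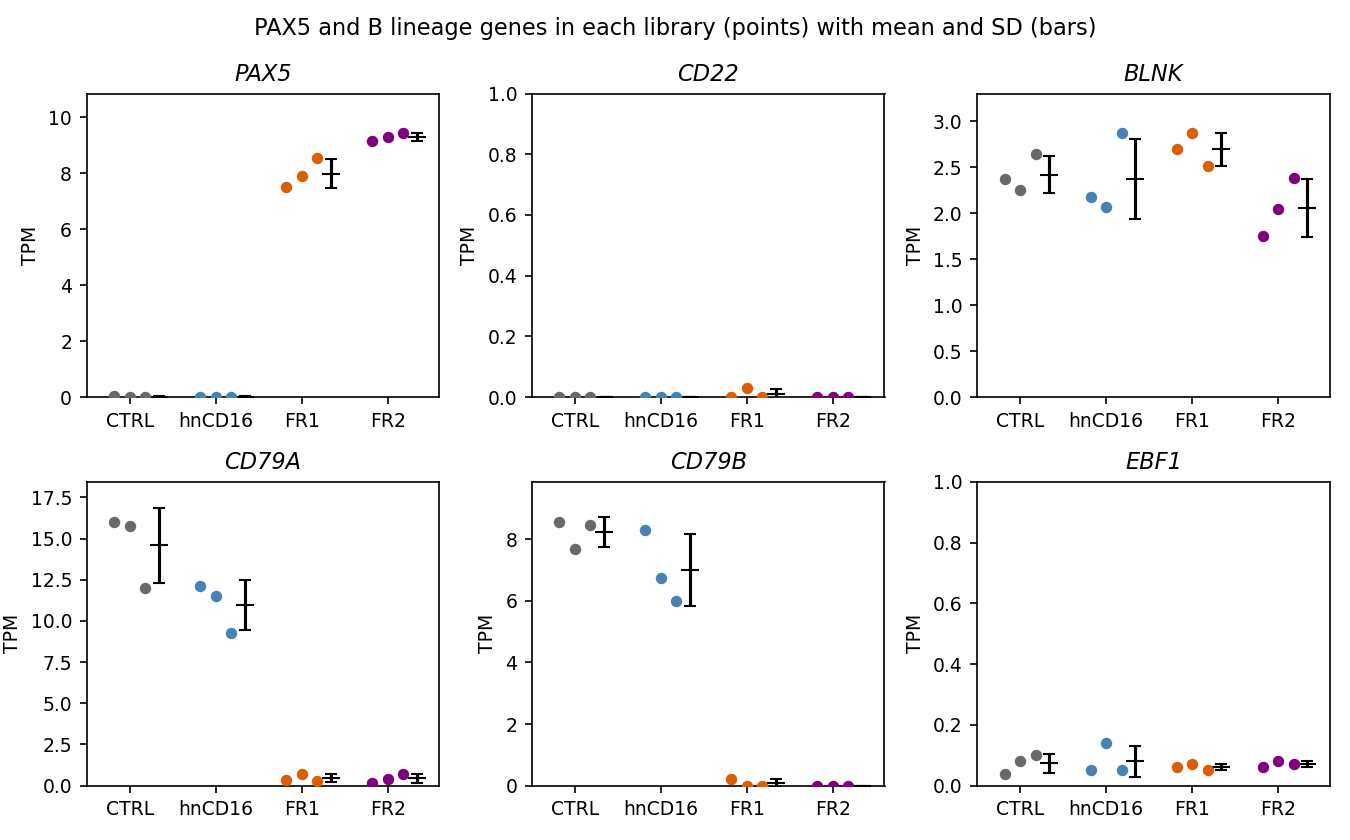
Each panel plots the TPM (y axis) of 1 gene in the 12 libraries (points, by group on the x axis) with the group mean and SD (n = 3). PAX5 is near 0 in CTRL and hnCD16 and between 7.51 and 9.44 TPM in FR1 and FR2. CD79A and CD79B show the opposite order. For BLNK, EBF1 and CD22 the FR1 and FR2 libraries together overlap with the others, while BLNK is higher in every FR1 than in every FR2 library.

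The upstream sequences of PAX5, CD79A and BLNK are shown since these genes took 3 different courses in the same libraries. Each is the 250 bases before the gene start in the RefSeq table of GRCh38.p14, 5′ to 3′ on the gene's own strand. Capitals mark matches to CAGNTG, the E box letters bound by E proteins, searched on both strands.
PAX5 (chr9:37034269-37034518, minus strand): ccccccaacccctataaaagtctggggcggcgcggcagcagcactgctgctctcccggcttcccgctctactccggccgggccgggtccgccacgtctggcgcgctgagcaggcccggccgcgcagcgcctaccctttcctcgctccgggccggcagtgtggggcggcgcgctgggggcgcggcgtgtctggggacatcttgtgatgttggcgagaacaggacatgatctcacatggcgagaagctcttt
CD79A (chr19:41877029-41877278, plus strand): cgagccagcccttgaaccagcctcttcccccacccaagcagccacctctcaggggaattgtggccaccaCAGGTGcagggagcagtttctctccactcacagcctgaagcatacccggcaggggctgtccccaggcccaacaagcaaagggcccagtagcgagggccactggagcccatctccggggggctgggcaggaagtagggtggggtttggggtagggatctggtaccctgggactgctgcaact
BLNK (chr10:96271570-96271819, minus strand): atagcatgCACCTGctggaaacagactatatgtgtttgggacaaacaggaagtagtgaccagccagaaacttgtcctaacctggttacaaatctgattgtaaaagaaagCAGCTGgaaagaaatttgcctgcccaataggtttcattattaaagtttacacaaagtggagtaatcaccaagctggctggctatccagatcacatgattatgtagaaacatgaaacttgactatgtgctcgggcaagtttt

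The PAX5 window held no E box, that of CD79A held 1 and that of BLNK held 2. The same letters occur in 42.5% of 35116 windows of this length. The core GCGTGAC of PAX5 sites (in 2.20% of windows) and the EBF1 letters CCCNNGGG (in 17.1%) were in none of the windows of PAX5, CD22, BLNK, CD79A and EBF1. No match to 1 motif therefore overlapped a match to another. CD79B and MS4A1 have no entry in the table. The absence of these letters is a description of 250 bases and says nothing about binding elsewhere.

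PAX5 is transcribed from more than 1 start and spliced into several forms. The transcript table has values for 5 PAX5 transcripts, all of them among the 13 accessions that RefSeq lists for the gene. NM_001280556 had counts in all 6 FR1 and FR2 libraries. It took 27.1%, 64.3% and 57.3% of PAX5 counts in the FR1 libraries and 44.0%, 45.9% and 77.0% in the FR2 libraries. Its mean share was 49.5 ± 19.8% in FR1 and 55.6 ± 18.5% in FR2, so the groups overlapped. NM_001280555 held 0%, 35.7% and 42.7% in FR1 and 29.2%, 54.1% and 23.0% in FR2.

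The other 3 transcripts had counts in 1 FR library each. NM_001280551 (44.7%) and NM_001280553 (28.2%) took counts in FR1 replicate 1, and NM_001280554 (26.8%) in FR2 replicate 1. The gene total was far steadier than its division, with a coefficient of variation of its CPM of 5.33% in FR1 and 2.22% in FR2. The few counts of CTRL replicate 1 were on NM_001280555, and those of the other CTRL and hnCD16 libraries on NM_001280551. RSEM divides reads between transcripts that share exons, and these shares differed more between replicates than between FR1 and FR2. Which start or exons each accession uses was not analysed here.

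Whether PAX5 came with its usual targets was asked of other genes, in 6 lists with 78 genes beside the chosen ones. Of these, 66 have values, 53 passed the filter and 12 were not analysed here. In FR1, 17 were higher and 21 lower than in CTRL, and 17 were higher and 20 lower than in hnCD16. In FR2, 18 were higher and 20 lower than in CTRL, and 18 were higher and 19 lower than in hnCD16. Between 69.8% and 71.7% of tested list genes were thus called in each comparison, in both directions, beside the shares of all genes given above. The median log2 fold change of the lists lay between -0.25 and -0.17, and that of all tested genes between -0.04 and -0.01. The 4 comparisons share libraries, so they are not independent of each other. The genes named from these lists are the 17 higher and 17 lower ones that passed the thresholds in all 4. Each of these is 32.1% of the 53 tested, beside 15.3% higher and 16.4% lower in all 4 among all 13657 genes.

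Among 12 genes that PAX5 is known to activate, 8 were tested. In FR1, 2 were higher and 5 lower than in CTRL and than in hnCD16, and in FR2, 2 were higher and 4 lower. Their median log2 fold change was -3.16 and -3.18 in FR1 and -2.63 and -2.65 in FR2 against CTRL and hnCD16, and it was the same with CR2 set to its bound. The higher ones were IKZF3 and CIITA. IKZF3, which encodes the lymphoid factor Aiolos, had 203 to 274 counts in CTRL and hnCD16 and 7463 to 8399 in FR1 and FR2 (log2 fold change against hnCD16 5.18 ± 0.0723 SE in FR1 and 5.25 ± 0.0724 in FR2). CIITA, the switch of HLA class II transcription, had 146 to 188 counts in CTRL and hnCD16, while FR1 had 1394 to 1480 and FR2 2237 to 2327.

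The lower PAX5-activated genes were CR2, CD72, LEF1 and BACH2. CR2 encodes CD21, a complement receptor of B cells. It had 32 to 59 counts in each CTRL and hnCD16 library and 0 in each FR1 and FR2 library, and was at least 42.4-fold lower in FR1 and 43.1-fold lower in FR2 than in hnCD16. CD72, a B cell lectin-like co-receptor, had 90 to 153 counts in CTRL and hnCD16 against 2 to 5 in FR1 and FR2 (log2 fold change against hnCD16 -5.36 ± 0.292 in FR1, edgeR adjusted p = 1.0e-11).

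LEF1, a WNT pathway factor, was at 4383 to 6278 counts in CTRL and hnCD16 and at 93 to 112 in FR1 and FR2. BACH2, a repressor that opposes plasma cell differentiation, was at 150 to 256 and 2 to 5 counts. NEDD9, a docking protein, passed both thresholds in FR1 (log2 fold change against hnCD16 -1.02 ± 0.166) and not in FR2 (-0.20 ± 0.149). The direct difference of FR1 from FR2 was -0.82 ± 0.172 (edgeR adjusted p = 0.0013), which is under the fold threshold. SPIB, an ETS factor, was not called in any of these comparisons, with 49 to 60 counts in FR1 and FR2 and 46 to 81 in the others.

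IRF8 and BANK1 did not pass the filter. IRF8, an interferon regulatory factor, had 4 to 12 counts in each CTRL and hnCD16 library and 0 or 1 in each FR1 and FR2 library. BANK1, a B cell scaffold protein, had 1 to 7 counts against 0. Neither gene was higher in the libraries with PAX5.

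Among 11 genes that PAX5 is known to repress, 9 were tested, and in each of the 4 comparisons 5 were higher and 4 lower. Their median log2 fold change was 1.08 in FR1 and 2.55 in FR2 against CTRL, and 1.59 and 3.06 against hnCD16. In each comparison this median is the value of CSF1R alone, which had 6 to 22 counts in CTRL and hnCD16. It therefore does not describe a shift of the list, which is split in both directions. The higher ones were PRDM1, JCHAIN, CD28, CSF1R and CCR2. PRDM1 encodes Blimp-1, the factor that drives plasma cell differentiation and is also used by effector NK and T cells. It had 0 to 2 counts in each CTRL and hnCD16 library and 1152 to 1320 in each FR1 and FR2 library, 998-fold higher in FR1 than in hnCD16 by summed counts (95% interval 389 to 3664). PAX5 and PRDM1 were therefore present in the same 6 libraries and at or near the floor in the same other 6.

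JCHAIN, the joining chain of IgM and IgA, had 0 to 4 counts in CTRL and hnCD16, while FR1 had 968 to 969 and FR2 1489 to 1584. CD28, a T cell costimulatory receptor, had 51 to 74 counts in CTRL and hnCD16 and 1572 to 2258 in the FR pair. CSF1R, the macrophage growth factor receptor, had 6 to 22 counts in CTRL and hnCD16, while FR1 had 30 to 38 and FR2 92 to 103. The chemokine receptor gene CCR2 had 0 to 4, 15 to 21 and 42 to 60 counts in the same groups.

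NOTCH1, XBP1, EMB and GRAP2 were lower. NOTCH1, whose receptor directs lymphoid progenitors to the T lineage, had a log2 fold change relative to hnCD16 of -1.84 ± 0.0661 in FR1 and -1.82 ± 0.0659 in FR2 (edgeR adjusted p = 2.4e-14 and 2.6e-14). XBP1, a factor of the secretory programme of plasma cells, was at -1.57 ± 0.0703 and -1.24 ± 0.0691, and the membrane glycoprotein gene EMB at -2.15 ± 0.0512 and -1.94 ± 0.0506. GRAP2, a T cell adaptor, had 629 to 805 counts in CTRL and hnCD16 and 0 or 1 in FR1 and FR2, 893-fold lower in FR1 than in hnCD16 (95% interval 247 to 7377). RAMP1, a receptor-modifying protein, did not pass the filter and had 0 counts in CTRL and hnCD16 and 2 to 8 in FR1 and FR2.

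**Figure D2:**
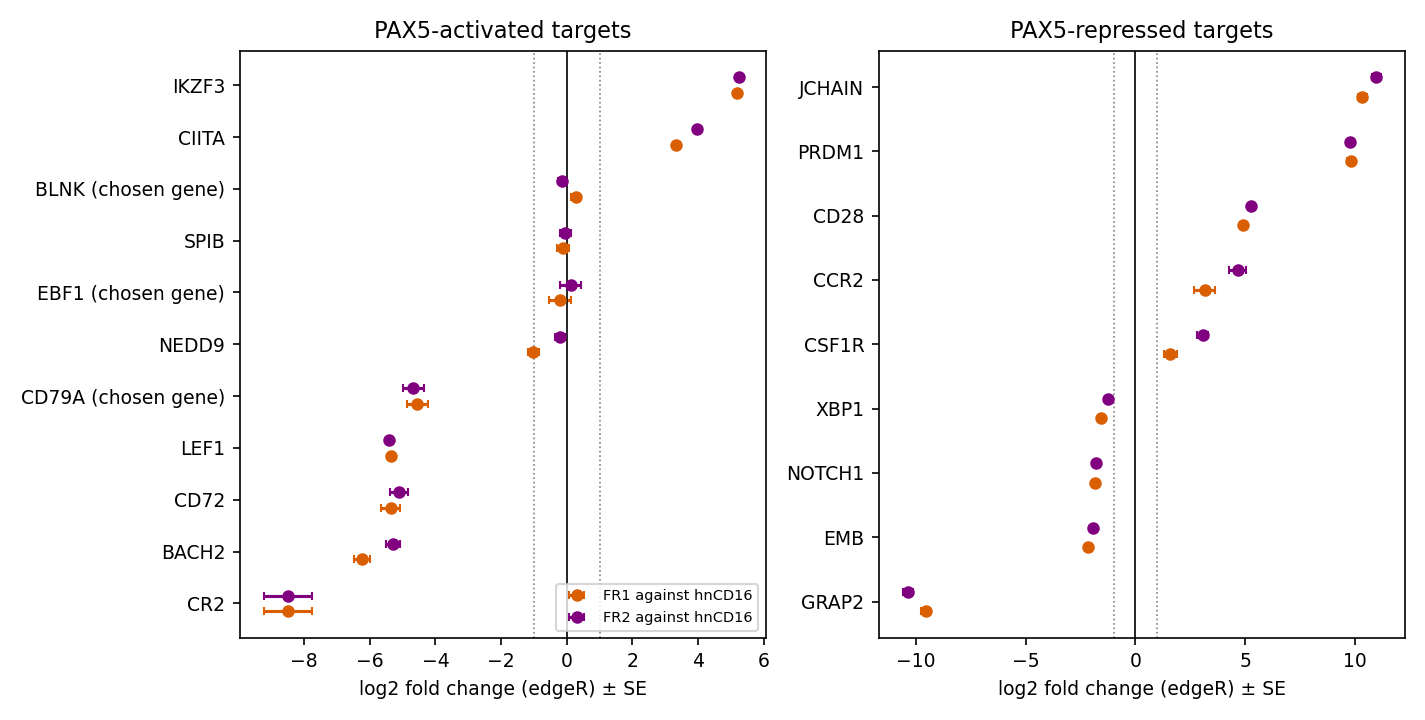
Log2 fold change ± SE from edgeR (x axis) of genes known to be activated (left) or repressed (right) by PAX5 (y axis), for FR1 and FR2 against hnCD16, with dotted lines at -1 and 1. Points of both lists lie on both sides of 0, from CR2 at the bottom to IKZF3 and CIITA at the top of the left panel, and from GRAP2 to JCHAIN on the right. CR2 has 0 counts in FR1 and FR2, so its fitted value is no bound.

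Of 18 other B lineage transcription factors, 16 were tested, and 5 were higher and 6 lower in each of the 4 comparisons. IRF4, which acts in plasma cells and activated lymphocytes, had 5 to 13 counts in CTRL and hnCD16 and 12405 to 13428 in FR1 and FR2. ID2, an antagonist of E proteins needed by NK cells, had 11 to 34 and 4085 to 4704. BCL6, the germinal centre repressor, had 0 to 4 counts in CTRL and hnCD16 and 732 to 1591 in FR1 and FR2, and FOXO1, which acts upstream of the RAG genes in B cell precursors, had 1 to 4 and 507 to 670. IKZF3 was the fifth.

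Lower factors beside LEF1 and BACH2 were BCL11A, MEF2C, ID3 and POU2F2. BCL11A, needed for early B cells, had 472 to 657 counts in CTRL and hnCD16 and 0 to 2 in FR1 and FR2, 710-fold lower in FR1 than in hnCD16 (95% interval 196 to 5864). MEF2C, a lymphoid and myeloid factor, had a log2 fold change relative to hnCD16 of -1.75 ± 0.0575 in FR1 and -2.02 ± 0.0588 in FR2. ID3, a further E protein antagonist, was at -1.56 ± 0.156 and -1.22 ± 0.148, and POU2F2, which encodes Oct-2, at -2.30 ± 0.237 and -1.68 ± 0.215. TCF3, the E protein gene that acts with EBF1 and PAX5, was not called, with 2164 to 2772 counts in FR1 and FR2 and 2470 to 3573 in CTRL and hnCD16. TCF4 and IKZF1 stayed under the fold threshold but did not overlap between the pairs. TCF4 was higher in FR1 and FR2, with 391 to 484 counts against 229 to 324. IKZF1 was lower there, with 2207 to 2623 against 2885 to 4058.

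Downstream of the B cell receptor, 13 of 17 other signalling genes were tested, and 4 were higher in each comparison, while 4 were lower than in CTRL and 3 lower than in hnCD16. The higher ones were LYN, PLCG2, PIK3AP1 and DAPP1. LYN, a Src family kinase, had 55 to 75 counts in CTRL and hnCD16 and 1288 to 1413 in FR1 and FR2, and the phospholipase gene PLCG2 had 312 to 433 and 2124 to 2447. The adaptor genes PIK3AP1 and DAPP1 had 86 to 106 and 18 to 31 counts in CTRL and hnCD16, and 2046 to 2551 and 393 to 539 in FR1 and FR2. CR2 and PRKCB were lower in all 4 comparisons. PRKCB, a protein kinase C of the B cell receptor pathway, had 1438 to 1908 counts in CTRL and hnCD16 and 0 to 2 in FR1 and FR2. As background, LYN, PLCG2, PIK3AP1 and DAPP1 also act downstream of receptors in other leukocytes.

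Of 17 further B cell surface markers, 9 were tested. In FR1, 2 were higher and 3 lower than in CTRL, and 2 higher and 2 lower than in hnCD16. In FR2, 3 were higher and 3 lower than in CTRL, and 3 higher and 2 lower than in hnCD16. FCRL1, an Fc receptor-like protein of B cells, had a log2 fold change relative to hnCD16 of 3.22 ± 0.247 in FR1 and 2.80 ± 0.259 in FR2. Its relative FCRL2 had 0 or 1 count in CTRL and hnCD16 and 9 to 14 in FR1 and FR2. CR2 and CD72 were lower in all 4 comparisons. CD37, a tetraspanin of B cells, was called lower against CTRL alone (log2 fold change -1.18 ± 0.0917 in FR1 and -1.08 ± 0.0903 in FR2), with -0.86 ± 0.0951 and -0.75 ± 0.0936 against hnCD16. TNFRSF13C was called higher in FR2 alone, at 1.06 ± 0.121 against CTRL and 1.22 ± 0.124 against hnCD16. In FR1 it was at 0.79 ± 0.124 and 0.94 ± 0.128. It had 57 to 93 counts in CTRL and hnCD16 and 123 to 162 in FR1 and FR2.

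The genes of the pre-B receptor and of V(D)J recombination lay on the side of CTRL and hnCD16, where PAX5 was at or near the floor. Of 15 immunoglobulin and pre-B receptor genes, 7 have values and 5 were tested, and 4 were lower in FR1 and in FR2 than in CTRL and 5 lower than in hnCD16, with none higher. The median log2 fold change against hnCD16, with genes at 0 set to their bound, was -7.31 in FR1 and -7.34 in FR2. VPREB1, which encodes a part of the surrogate light chain, had 485 to 566 counts in CTRL and hnCD16 and 0 in each FR1 and FR2 library, at least 471-fold lower in FR1 than in hnCD16. IGLL1, the other part, had 4505 to 6488 counts and 7 to 18. RAG1 and RAG2, the recombinase of both B and T cell precursors, had 763 to 1017 and 162 to 212 counts in CTRL and hnCD16, and 4 to 21 and 0 in FR1 and FR2.

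Between hnCD16 and CTRL, 1 list gene was called (1.89% of those tested, beside 0.527% of all genes), and its values are not reported here. Between FR1 and FR2, 3 list genes (5.66%, beside 1.93% of all genes) were called, and all were lower in FR1. They were CSF1R (log2 fold change -1.47 ± 0.202), CCR2 (-1.51 ± 0.259) and RAG1 (-1.16 ± 0.362).

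**Figure D3:**
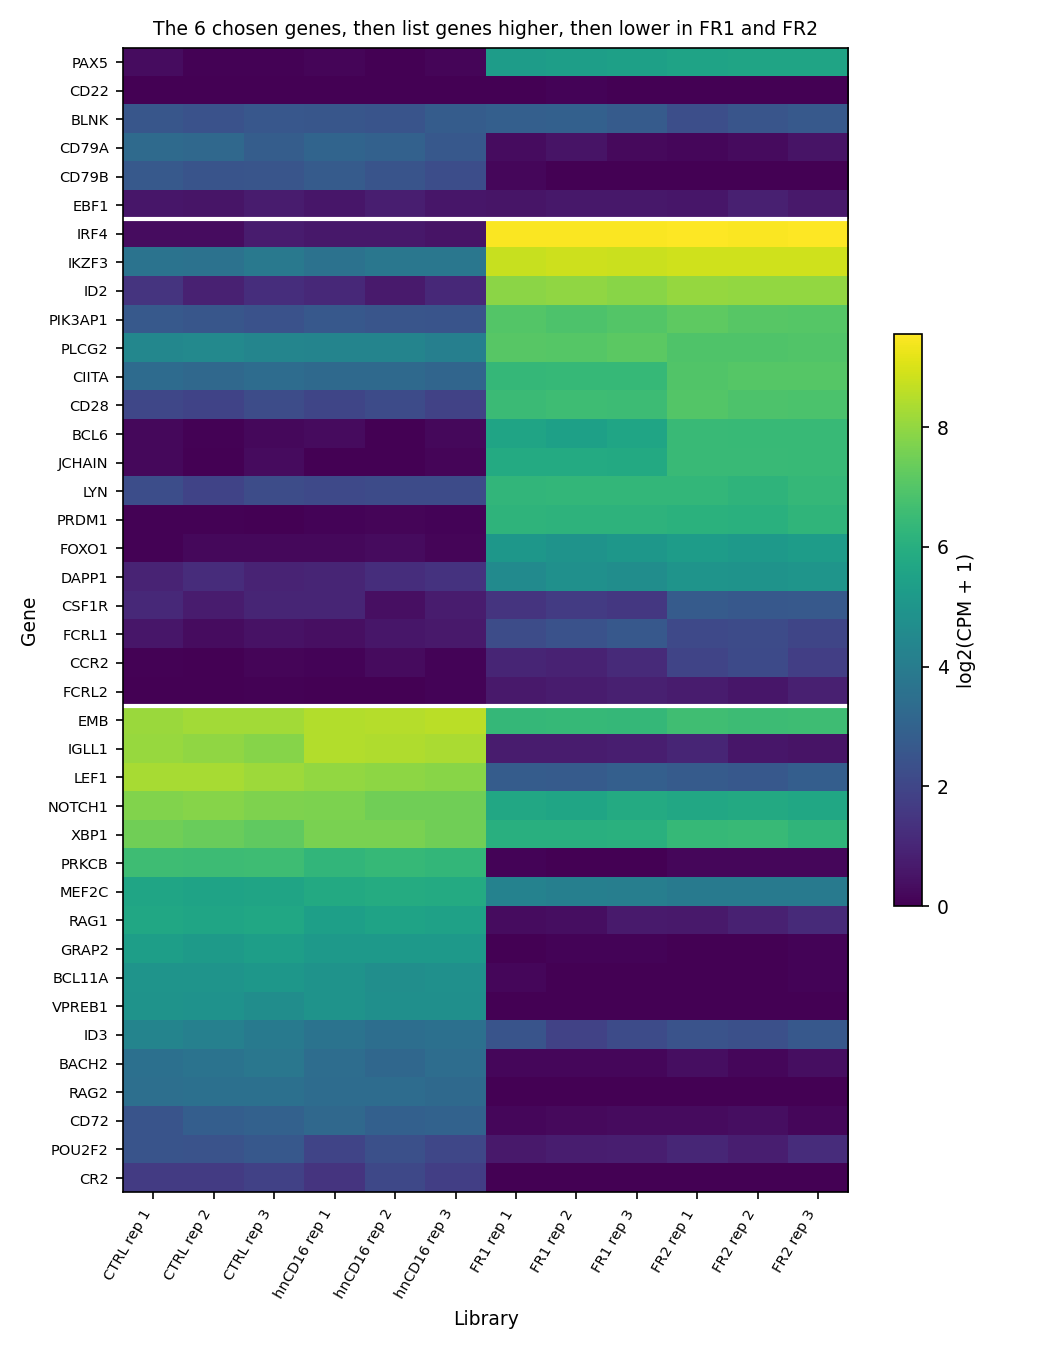
Colour gives log2(CPM + 1) of each gene (y axis) in each library (x axis). The upper block holds the 6 chosen genes with values, the middle block the 17 list genes higher in FR1 and FR2 in all 4 comparisons and the lower block the 17 lower ones, each sorted by its highest value.

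Lists of other cell types moved with the same pairs of groups. Of 7 plasma cell markers, 5 were tested and 3 were higher (JCHAIN, PRDM1 and IRF4) and 2 lower (MZB1 and XBP1) in each of the 4 comparisons. Their summed level was 260 to 319 CPM in CTRL and hnCD16 and 911 to 995 CPM in FR1 and FR2. The higher sum rested on IRF4. Without it the other 6 summed to 259 to 318 CPM in CTRL and hnCD16 and to 194 to 243 CPM in FR1 and FR2. That sum mixes both directions, since JCHAIN and PRDM1 were higher in FR1 and FR2 while MZB1 and XBP1 were lower. MZB1, a chaperone of immunoglobulin assembly, had 2002 to 2335 counts in CTRL and hnCD16 and 30 to 64 in FR1 and FR2. SDC1 and TNFRSF17 were not tested. SDC1, the defining surface marker CD138, had 0 to 3 counts in each of the 12 libraries. TNFRSF17 went the other way, with 0 counts in every CTRL and hnCD16 library. Across the FR libraries it had 3 to 23 counts, so its lowest value there was at the floor. The 8 HLA class II genes, with CIITA among them, were all higher in FR1 and FR2, with summed levels of 9.26 to 11.6 CPM in CTRL and hnCD16 and 1985 to 3109 CPM in FR1 and FR2. The HLA genes have close relatives that can share reads, so their values are uncertain.

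Of the T cell markers, 9 of 11 were tested, and 8 were lower and 1 (CD28) higher in FR1 and FR2. Their summed level was 811 to 929 CPM in CTRL and hnCD16 and 152 to 198 CPM in FR1 and FR2. The 6 myeloid markers summed to 2.99 to 4.13 CPM in CTRL and hnCD16 and 5.90 to 10.6 CPM in FR1 and FR2, where MPO was at 0. The 16 B cell surface markers with values, CD22 included, summed to 28.0 to 32.4 CPM in CTRL and hnCD16 and to 22.1 to 23.3 CPM in FR1 and FR2, so their total was not higher in the libraries with PAX5.

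Of the other PAX genes, PAX8 and PAX9 passed the filter. PAX9, a factor of pharyngeal and tooth development, had 58 to 100 counts in each CTRL and hnCD16 library and 0 or 1 in each FR1 and FR2 library, the reverse of PAX5. PAX8, a factor of thyroid and kidney, had 15 to 28 counts throughout and was not called (log2 fold change against hnCD16 -0.39 ± 0.25 in FR1 and -0.19 ± 0.243 in FR2).

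Neighbours of PAX5 on chromosome 9 did not share its pattern. Those with values given here are ZCCHC7 (86.3 kb away), GRHPR and ZBTB5 at higher coordinates, and MELK (155.6 kb) and CLTA at lower ones. These 5 genes were expressed in all 4 groups, from 22.0 to 177 CPM as group means, and none passed the fold threshold in any comparison. The largest of these log2 fold changes was that of CLTA, a clathrin light chain, at 0.87 ± 0.0691 in FR1 against CTRL. PAX5 itself stood at 40.0 ± 2.13 CPM in FR1 and 46.3 ± 1.03 CPM in FR2.

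The genes most like PAX5 were sought among 12535 genes by the Euclidean distance of centred log2(TPM + 1) values over the 12 libraries. They were WNT8B (distance 0.199), IL18R1 (0.219), DSG4 (0.249), CPLX3 (0.278) and ATP10D (0.286). IL18R1, a chain of the interleukin-18 receptor, was at 8.50 ± 0.625 TPM in FR1 and 10.1 ± 0.627 TPM in FR2, and had 0 or 1 count in each CTRL and hnCD16 library. DSG4, a desmosomal cadherin, was at 8.54 ± 0.557 and 9.53 ± 0.342 TPM in FR1 and FR2. On log2(CPM + 1) values none of the 5 was among the first 5, and WNT8B ranked 384, so the order rests on the scale.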

How the data were processed

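RNA-seq of 12 YT libraries was used. Per the sample notes and the methods, the authors cleaned the reads (SOAPnuke), aligned them by HISAT2 2.1.0 to the GRCh38.p13 build and estimated expression with RSEM 1.3.1. The deposited expected counts carry no normalization, and the TPM values, from the same reads, are the authors' own. Whether counting used strand is not given in the sources used here. In the gene table, 24 other per-sample columns and 16 averages were not used.

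Expected counts were rounded and tested in R 4.3.3 with edgeR 4.0.16 (quasi-likelihood, TMM, filterByExpr, 1 fit of 4 groups without covariates), with Benjamini-Hochberg adjustment over 13657 genes in each of 6 comparisons. The common dispersion was 0.00312, and the step was tested on simulated data. CPM uses TMM library sizes. Ratios of summed counts carry exact 95% intervals. Replicates differed by more than sampling noise (chi-square per gene 2.06 to 12.3). Alternatives included limma 3.58.1 on log2(TPM + 1) or log2(TPM + 0.1), DESeq2 1.42.0, other scalings, filters and samples, the replicate block, no fold threshold, and each library left out.

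The chosen genes and the lists were set with earlier results of these data known. Named are those genes, PAX genes of at least 1 CPM, list genes called the same way in each of the 4 comparisons across the pairs of groups, the 5 genes most like PAX5 and its 3 nearest neighbours on each side. Other list genes are given to account for a list and were named after their values were seen. Some listed and neighbouring genes are left out of the text. Gene positions follow GENCODE v44 (GRCh38) and upstream sequences RefSeq (GRCh38.p14). Figures used matplotlib 3.10.9.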

Additional observations from a re-analysis of the deposited data

How the results depend on the processing

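Over 96 alternatives, the counts of B lineage list genes called stayed within 1.5 times in 90. The other 6 concern the comparisons with few calls. Between hnCD16 and CTRL the count of 1 became 0 with limma on log2(TPM + 1) or log2(TPM + 0.1) and 22 with no fold threshold. Between FR1 and FR2 the count of 3 became 0 with limma on log2(TPM + 1) and 18 with no fold threshold. With 1 library left out at a time, the counts ran from 38 to 40 for FR1 against CTRL, 37 to 39 for FR1 against hnCD16, 38 to 39 for FR2 against CTRL, 37 to 39 for FR2 against hnCD16, 1 to 2 for hnCD16 against CTRL (2 without hnCD16 replicate 3), and 2 to 4 for FR1 against FR2.

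Over the log2 fold changes of the chosen genes, 73 of 443 alternatives moved by more than the spread and 0 reversed. PAX5 was higher in FR1 and FR2 under all 60 alternatives, and its log2 fold change moved by more than the spread in 20. A pseudocount lowers the fold change of a gene near 0 by construction. With limma on log2(TPM + 1) it was 3.13 in FR1 and 3.33 in FR2 against CTRL, and 3.15 and 3.35 against hnCD16. On log2(TPM + 0.1) it was 6.05 and 6.27 against CTRL, and 6.16 and 6.38 against hnCD16. With each library left out it ran from 7.96 to 9.46 for FR1 against CTRL, with the highest value without CTRL replicate 1, which held 5 of the 7 CTRL counts. It ran from 8.20 to 9.67 for FR2 against CTRL, 8.45 to 9.37 for FR1 against hnCD16 and 8.66 to 9.58 for FR2 against hnCD16.

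Deviations of same-numbered replicates correlated weakly (mean r from -0.026 to 0.109 over the comparisons). All r were above 0 in hnCD16 against CTRL (0.065 to 0.131) and in FR2 against hnCD16 (0.037 to 0.059). In FR1 against FR2 all were below 0 (-0.060 to -0.0017), and the other comparisons had both signs. With 3 libraries per group, these values cannot decide whether the numbers pair the libraries. With the replicate block the counts were the same as without it, 38, 37, 38 and 37 in the 4 comparisons across the pairs, 1 for hnCD16 against CTRL and 3 for FR1 against FR2, and the PAX5 log2 fold changes were 8.33, 8.99, 8.54 and 9.20. The block changed no call count.

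The 40 alternatives for transcript shares moved by less than 1 SD, which does not show that the shares are steady. That SD was wide, 19.8% in FR1 and 18.5% in FR2 for NM_001280556. Leaving out 1 of 3 libraries also cannot move a mean that far. Genes near the floor, such as CD22 and BANK1, and the division of PAX5 reads among transcripts are limited by depth and by reads shared between transcripts.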
